A study of Homo sapiens with 6 samples.

Results

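PML nuclear bodies are dot-like structures of the cell nucleus built around the PML protein, which many copies of SUMO, a small ubiquitin-like modifier, hold together with their resident proteins. UBC9 is the enzyme that joins SUMO to its substrates, and PML, SP100 and DAXX are among the best known of these. PML and several members of the speckled protein (SP) family are also interferon-inducible genes in many human cell types. The 9 genes described here were chosen by symbol as scaffold and resident proteins of these bodies: PML, SP100, SP110, SP140L, DAXX, ATRX, HIPK2, MORC3 and USP7. All 9 were found among the 58174 genes of the files, and all 9 passed the filter on low values that left 12428 genes for testing.

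T24, an established line of human bladder cancer cells, carried either a control shRNA (shRNA-NC, 3 samples) or an shRNA against UBC9 (shRNA-UBC9, 3 samples), each delivered by a lentiviral vector and kept by drug selection, and polyA RNA was sequenced. The knockdown rested on 1 hairpin in 1 cell line, so the loss of UBC9 and any other effect of that hairpin cannot be told apart. The labels do not say whether the 3 samples of a group were separate cultures, so the spread that p-values set the group difference against may be technical. Values are RPKM, reads scaled to gene length and to all mapped reads. Fold changes are differences of the group means of log2(RPKM + 0.1), which understates the change of low genes, and adjusted p-values are those of limma with Benjamini-Hochberg adjustment over all tested genes. DEGs had to change by more than 1 on the log2 scale with an adjusted p below 0.05, and genes past the adjusted p alone were counted separately.

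The sequencing depth relative to shRNA-NC replicate 1 ranged from 0.945 to 1.208, and no absolute depth is known. Of the marker genes of the epithelial origin of the line, KRT7, KRT8, KRT18 and KRT19 were abundant, with a list sum of 938 to 1110 RPKM in shRNA-NC and 426 to 563 RPKM in shRNA-UBC9, while CDH1 did not exceed 0.00449 RPKM. All 4 keratins fell, by 0.81 to 1.11 on the log2 scale (limma adjusted p of 0.000578 to 0.00698), and EPCAM, at 0.658 and 1.5 RPKM on average, had a log2 fold change of 1.0 that did not pass (adjusted p = 0.0984). Of 8 urothelial markers only GATA3 was high enough to be tested, and it fell by 0.79 (adjusted p = 0.016). Their part in the rise of PML and the SP genes was not tested.

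The transcripts of 4 of the 9 genes rose in shRNA-UBC9, and no member passed the threshold in the other direction. The 4 were PML itself and the 3 genes of the SP family in the set, SP100, SP110 and SP140L. DAXX, ATRX, HIPK2, MORC3 and USP7 did not pass the test. Of all tested genes, 18.8% rose and 18.0% fell at the same adjusted p. SP100 and SP110 were also DEGs, against 5.2% up-regulated DEGs and 2.7% down-regulated DEGs among all tested genes. The median log2 fold change was 0.32 over the 9 members and 0.005 over all tested genes. That of the members was 0.198 without shRNA-NC replicate 1 and 0.182 without shRNA-UBC9 replicate 1. In 4 members the groups did not overlap and shRNA-UBC9 was higher, as was the case for 25.7% of all tested genes, while no member was lower without overlap, as were 25.4% of all tested genes. For such a gene the exact permutation test gives p = 0.1, the smallest that 3 samples against 3 allow.

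**Figure D1:**
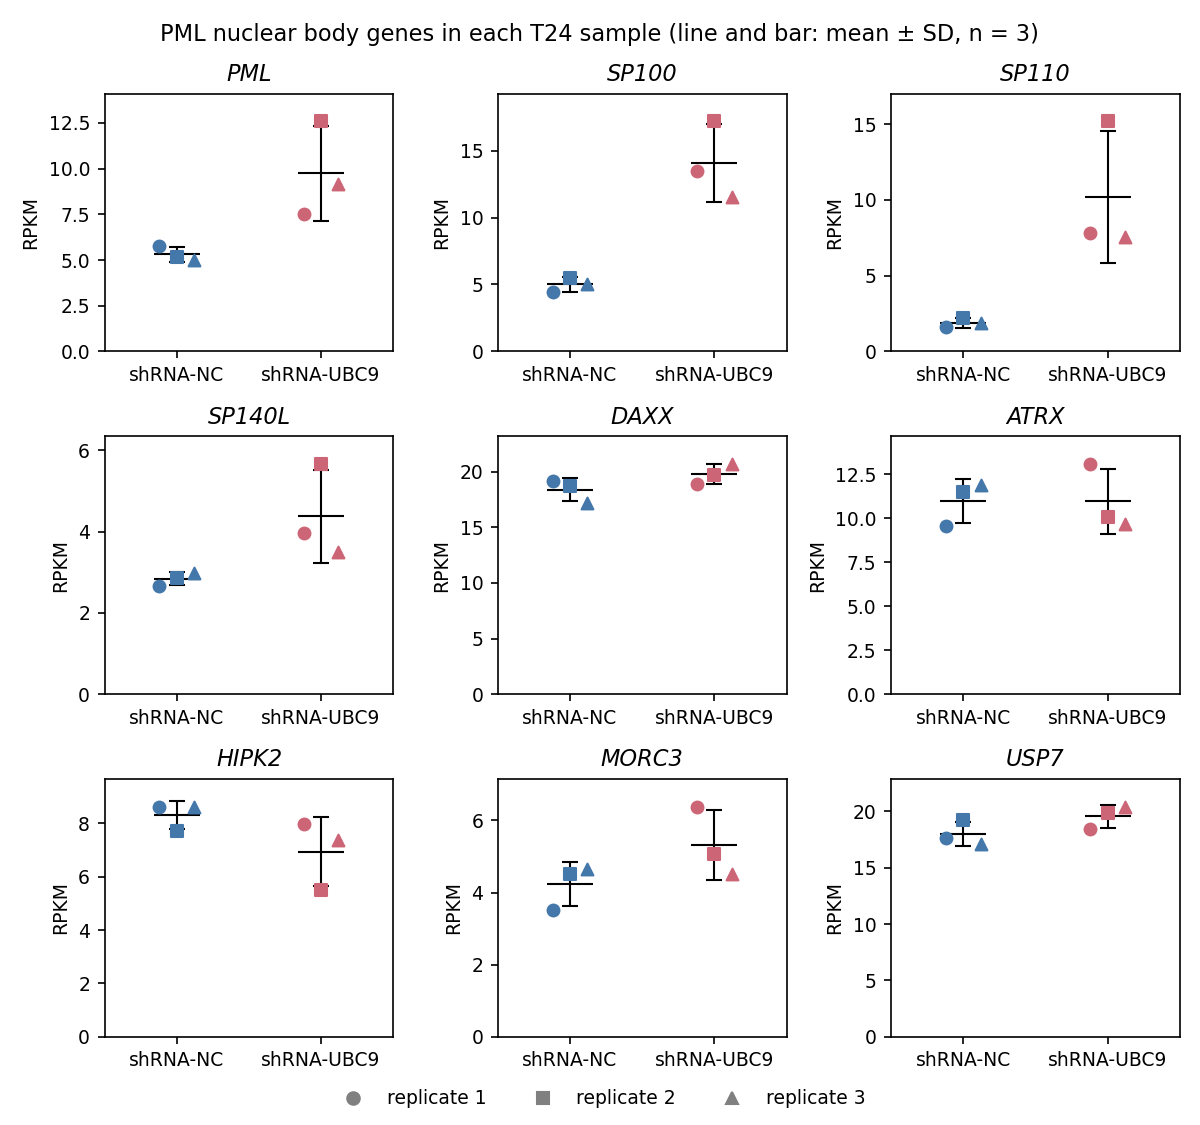
RPKM of each of the 9 genes (vertical axes from 0) in the 3 shRNA-NC samples (blue) and the 3 shRNA-UBC9 samples (red), with the mean and SD of each group in black and the marker shape giving the replicate. The groups are apart for PML, SP100, SP110 and SP140L, in which shRNA-UBC9 replicate 2 is highest, and overlap for the other 5 genes.

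PML, the tripartite-motif protein that forms the shell of the bodies, lies on chr15:73994673-74047827 (GRCh38, plus strand). Its level was 5.76, 5.19 and 4.99 RPKM in shRNA-NC and 7.52, 12.6 and 9.14 RPKM in shRNA-UBC9. All knockdown samples thus lay above all controls, with replicate 2 highest. The mean went from 5.32 ± 0.398 to 9.77 ± 2.62 RPKM (SD, n = 3 each), 1.84 times the control level. The log2 fold change of PML was 0.84 (standard error 0.174, 95% confidence interval 0.44 to 1.23, limma adjusted p = 0.00723), short of the cutoff of 1 for a DEG. With shRNA-UBC9 replicate 2 left out it was 0.635, and with shRNA-UBC9 replicate 1 left out it was 1.005, which would make PML a DEG. An antisense transcript that shares 4.62% of the exon bases of PML is annotated in GENCODE but is not listed in the files by that identifier. The strand setting of the counting is not stated, so reads of the pair cannot be told apart.

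The SP proteins share DNA- and chromatin-binding domains, and their genes stand in a cluster of neighbouring paralogs on chromosome 2 (GRCh38, positions 230165186 to 230545606). The cluster holds SP110, SP140, SP140L and SP100. SP140 is no member of the set but is given here because its RefSeq start lies next to that of SP110. Reads of such paralogs can be split in counting, and how reads that map to several places were handled is not stated.

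SP110, an interferon-induced nuclear body protein, showed the largest rise of the 9. It had 1.58, 2.23 and 1.89 RPKM in shRNA-NC and 7.79, 15.2 and 7.52 RPKM in shRNA-UBC9. Replicate 2 had about the sum of the other knockdown samples, but each of the 3 was well above the highest control. The mean went from 1.9 ± 0.326 to 10.2 ± 4.34 RPKM (SD, n = 3 each), 5.35 times the control level. The log2 fold change of SP110 was 2.29 (standard error 0.259, 95% confidence interval 1.7 to 2.89, limma adjusted p = 0.000499), which ranked 162 of 12428 tested genes. It fell to 1.968 without shRNA-UBC9 replicate 2. Of the SP110 exon bases, 17.8% are shared with an opposite-strand non-coding transcript and 1.59% with SP140, also on the opposite strand.

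SP100, the founding member of the family and with PML the classical marker of the bodies, lies on chr2:230415942-230545606 (plus strand). Its samples had 4.44, 5.51 and 5.07 RPKM in shRNA-NC and 13.5, 17.2 and 11.5 RPKM in shRNA-UBC9. The lowest knockdown value was thus more than 2 times the highest control value. The mean went from 5.0 ± 0.54 to 14.0 ± 2.91 RPKM (SD, n = 3 each), and the log2 fold change of 1.46 (standard error 0.153, 95% confidence interval 1.1 to 1.81) had an adjusted p of 0.00037 (limma). HMGB1P3, a pseudogene that lies within SP100 and shares 3.85% of its exon bases, was listed at 0 RPKM in all 6 samples.

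SP140L, a less studied paralog, rose least of the family. It had 2.67, 2.85 and 2.99 RPKM in shRNA-NC and 3.97, 5.67 and 3.49 RPKM in shRNA-UBC9. The groups were apart, but the gap between the highest control and the lowest knockdown sample was small beside the range within shRNA-UBC9. The mean went from 2.83 ± 0.159 to 4.38 ± 1.14 RPKM (SD, n = 3 each). The log2 fold change of SP140L was 0.58 (standard error 0.169, 95% confidence interval 0.19 to 0.97, limma adjusted p = 0.0282). This call was the least secure of the 4: it held under 9 of 15 alternatives, and was lost when any shRNA-NC sample or shRNA-UBC9 replicate 2 was left out (adjusted p = 0.0584 without shRNA-UBC9 replicate 2, and 0.0634 to 0.0864 without an shRNA-NC sample).

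SP140, the fourth gene of the cluster, is known mainly from leukocytes and was close to 0. It had 0.03, 0.0879 and 0.0741 RPKM in shRNA-NC and 0.378, 0.595 and 0.26 RPKM in shRNA-UBC9, again with no overlap. It did not pass the filter on low values. When every detected gene was tested its log2 fold change was 1.6 (standard error 0.292, limma adjusted p = 0.013 over 22896 genes). In bulk RNA such a level cannot tell a low level in all cells from a high level in few. SP140 also shares 3.05% of its exon bases with SP110 on the opposite strand. As the strand setting of the counting is not stated, the low RPKM of SP140 may hold reads of SP110.

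Because the 4 genes rose by different amounts, the make-up of the family changed along with its sum. The summed level of SP100, SP110, SP140L and SP140 was 8.71 to 10.7 RPKM in shRNA-NC and 25.6, 38.6 and 22.7 RPKM in shRNA-UBC9. SP100 made up 50.6% to 51.6% of it in the control samples and 44.5% to 52.6% in the knockdown samples, with overlapping ranges. SP110 went from 18.1% to 20.9% in shRNA-NC to 30.4% to 39.3% in shRNA-UBC9. SP140L went the other way in share, from 26.7% to 30.6% down to 14.7% to 15.5%, although its own level was higher.

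**Figure D2:**
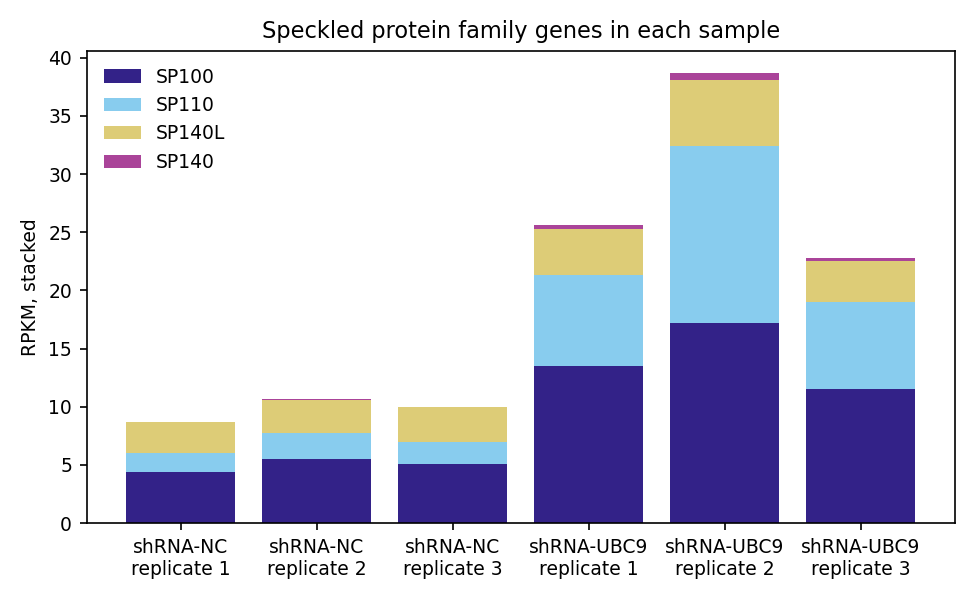
RPKM of the 4 SP genes stacked for each sample (bars from 0). The 3 shRNA-UBC9 bars reach 25.6, 38.6 and 22.7 RPKM against 8.71 to 10.7 RPKM in shRNA-NC, and SP110 takes a larger part of them.

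Relative to the scaffold, SP100 and SP110 were higher in shRNA-UBC9 and SP140L was not. Within each sample, SP100 was 0.77 to 1.06 times the PML level in shRNA-NC and 1.25 to 1.79 times in shRNA-UBC9. SP110 was 0.274 to 0.429 times the PML level in the controls and 0.822 to 1.2 times in the knockdown samples. The groups did not overlap in either ratio. SP140L was 0.463 to 0.598 times the PML level in shRNA-NC and 0.382 to 0.528 times in shRNA-UBC9, with overlapping ranges and a lower mean in the knockdown samples. These ratios are between genes on the length-scaled RPKM.

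Short stretches at the starts of the SP genes are shown because these are the neighbouring members that moved together, and because factors of the interferon response bind repeats of GAAA. RefSeq start windows of GRCh38.p14, 250 bases before to 50 after each start, were at hand for 5 of the 9 genes: SP100, SP110, SP140L, MORC3 and USP7, in 9 windows. PML, DAXX, ATRX and HIPK2 had no window. Both strands were searched for GAAANGAAA, which 3.12% of all 35116 windows hold, for GAAANNGAAA, which 3.57% hold, and for TTCNNNGAA, which 7.66% hold. GAAANGAAA was found in both windows of SP110 and in that of SP140L, and also in that of SP140. GAAANNGAAA was in no window of these genes, and the windows of SP100 and MORC3 held none of the 3 motifs. TTCNNNGAA was found in the downstream window of SP110, where it overlaps the match of GAAANGAAA by 3 bases, and in 1 of the 3 windows of USP7.

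Printed 5′ to 3′ on the strand that carries GAAANGAAA, the 3 sites are as follows, with capitals for the run of 16 letters that they share. The first is at chr2:230225723-230225751, minus strand, and lies before the start of SP110 and across the start of SP140, which point away from each other 100 bases apart. The second is at chr2:230220010-230220038, plus strand, before the downstream start of SP110. The third is at chr2:230327103-230327131, minus strand, before the start of SP140L.

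SP110 and SP140: agtcaaagagGAAAAGAAAAGTGAAAttg

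SP110, downstream start: gggcttccgaGAAAAGAAAAGTGAAAgtt

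SP140L: cccaaatgggGAAAAGAAAAGTGAAAgta

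The shared run was found in 4 of all 35116 windows (0.0114%), and these 4 belong to SP110, SP140 and SP140L. The run was looked for after the matches had been seen, the genes are paralogs, and the windows of SP110 and SP140 overlap, so this is a description of the letters and not a count of binding sites. SP100, which rose more than SP140L, does not have it in either window. The printed sites are matches of GAAANGAAA only, since GAAANNGAAA had none, and binding of any factor was not tested.

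The remaining 5 members are the histone chaperone pair DAXX and ATRX, the kinase HIPK2, the ATPase MORC3 and the deubiquitinase USP7. For each of them the samples of the groups overlapped. DAXX, which places the histone variant H3.3 on chromatin, had 19.2, 18.7 and 17.2 RPKM in shRNA-NC and 18.9, 19.7 and 20.7 RPKM in shRNA-UBC9. Its log2 fold change was 0.11 (limma adjusted p = 0.351), and the 95% confidence interval of the ratio of shRNA-UBC9 to shRNA-NC ran from 0.942 to 1.23. Another same-strand gene of the annotation shares 14.3% of the exon bases of DAXX, so the DAXX level may hold reads of that gene.

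ATRX, the chromatin remodeller that works with DAXX, had 9.56, 11.5 and 11.9 RPKM in shRNA-NC and 13.1, 10.1 and 9.7 RPKM in shRNA-UBC9. The highest of all 6 values and the second lowest were both in the knockdown group. The log2 fold change of -0.01 was the closest to 0 of the 9 (limma adjusted p = 0.959), with a ratio interval of 0.797 to 1.24. The ratio of DAXX to ATRX within a sample was 1.44 to 2.01 in shRNA-NC and 1.44 to 2.13 in shRNA-UBC9.

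HIPK2, a kinase recruited to the bodies, had the lowest log2 fold change of the 9. It had 8.61, 7.69 and 8.62 RPKM in shRNA-NC and 7.96, 5.49 and 7.36 RPKM in shRNA-UBC9. The low value was that of replicate 2, the sample in which the PML and SP genes were highest. The log2 fold change was -0.27 (95% confidence interval -0.59 to 0.05, limma adjusted p = 0.165), and it was -0.115 with that replicate left out.

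MORC3, which is drawn into the bodies through SUMO, had 3.53, 4.51 and 4.64 RPKM in shRNA-NC and 6.38, 5.07 and 4.5 RPKM in shRNA-UBC9. The change of 0.32 on the log2 scale missed the threshold (limma adjusted p = 0.141), and its interval of -0.04 to 0.67 does not exclude a rise as large as that of SP140L. It shares 1.39% to 3.2% of its exon bases with each of 3 other annotated genes. USP7, which removes ubiquitin from MDM2 and PML, had 17.6, 19.2 and 17.1 RPKM in shRNA-NC and 18.4, 19.8 and 20.4 RPKM in shRNA-UBC9. Its log2 fold change was 0.12 (limma adjusted p = 0.321), with a ratio interval of 0.945 to 1.25. The upper bounds of the ratio for all 5 genes, at most 1.59, lie below the lower bounds of SP100 (2.15) and SP110 (3.25). They do not all lie below those of PML (1.35) and SP140L (1.14), and a missed threshold does not show that a gene did not change.

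**Figure D3:**
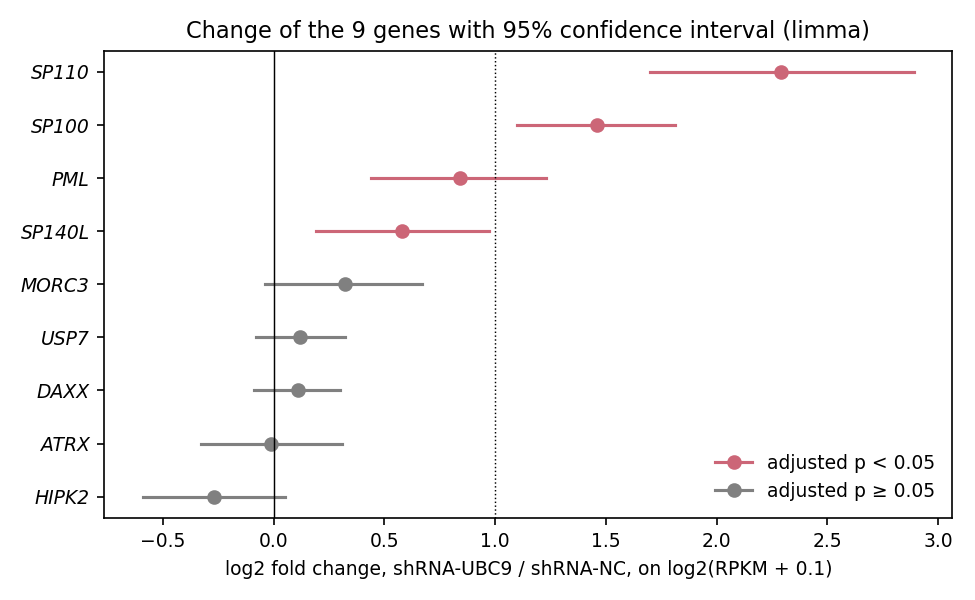
Log2 fold change of each of the 9 genes (points) with its 95% confidence interval from limma (lines), in red where the adjusted p is below 0.05, with the DEG cutoff of 1 as a dotted line. The values run from -0.27 for HIPK2 to 2.29 for SP110.

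The order of the levels differed between the groups. In shRNA-NC, DAXX (18.3 RPKM on average) and USP7 (18.0 RPKM) came first with overlapping ranges, followed by ATRX (11.0 RPKM), HIPK2 (8.31 RPKM), PML (5.32 RPKM), SP100 (5.0 RPKM), MORC3 (4.23 RPKM), SP140L (2.83 RPKM) and SP110 (1.9 RPKM). Besides DAXX and USP7, the neighbours PML and SP100 and the neighbours SP100 and MORC3 overlapped. In shRNA-UBC9, DAXX (19.8 RPKM) and USP7 (19.5 RPKM) still came first, and SP100 moved to the third place with 14.0 RPKM. SP110 moved from the last place to the fifth, with 10.2 RPKM. In that group only USP7 and SP100 were neighbours whose ranges did not overlap.

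The 4 genes that rose shared the order of the knockdown samples to a degree: shRNA-UBC9 replicate 2 was highest in all 4, and highest in none of the other 5. How often that replicate was highest over all tested genes was not counted, so this order is a description only. Relative to the mean of the controls on the log2 scale, this replicate stood at 2.94 for SP110, 1.77 for SP100, 1.24 for PML and 0.98 for SP140L. Some transcription factors of the interferon response, which act on interferon-stimulated genes, rose as well. IRF7 had 13.1, 16.0 and 13.5 RPKM in shRNA-NC and 63.8, 112.0 and 76.7 RPKM in shRNA-UBC9, so it rose by 2.52 on the log2 scale (limma adjusted p = 8.33e-05) with no overlap between the groups. Of the 4 factors followed, 3 rose: IRF7, IRF9 with a log2 fold change of 1.52 (adjusted p = 0.000109) and STAT2 with 0.85 (adjusted p = 0.0182). IRF1, whose product also acts on many of these genes, had 7.56, 6.62 and 7.52 RPKM in shRNA-NC and 4.49, 7.24 and 4.35 RPKM in shRNA-UBC9, and its log2 fold change of -0.46 did not pass the test (adjusted p = 0.0834). Replicate 2 was the highest knockdown sample for all 4. The part of these factors in the rise of PML and the SP genes was not tested.

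**Figure D4:**
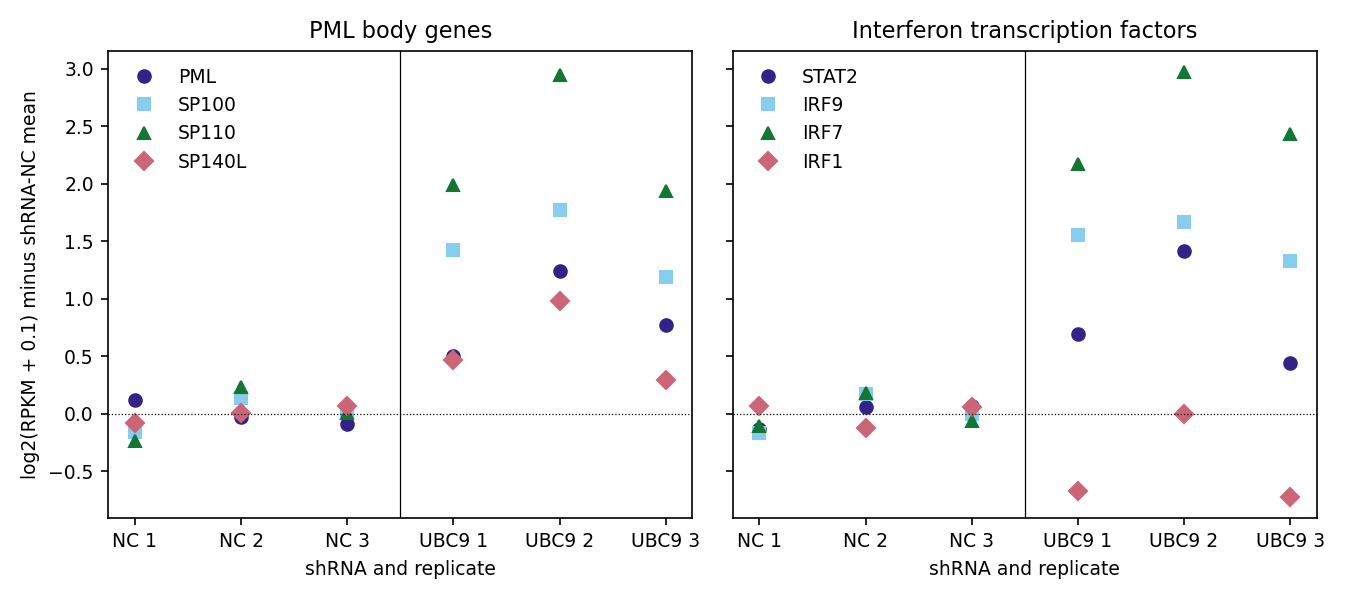
Level of each gene in each sample as the difference of log2(RPKM + 0.1) from the shRNA-NC mean, for PML and the SP genes (left) and the interferon transcription factors (right). All 4 genes on the left lie above the controls in the 3 shRNA-UBC9 samples and are highest in replicate 2, as are STAT2, IRF7 and IRF9, while IRF1 reaches at most 0.0 in shRNA-UBC9.

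By the same kind of profile, the 5 tested genes most like PML over the 6 samples, by Pearson's r of log2(RPKM + 0.1), were ZNF485 (r = 0.9991), SMPD2 (0.9984), KB-1732A1.1 (0.9943), LGALS3BP (0.9924) and BATF2 (0.9922). All but KB-1732A1.1 (limma adjusted p = 0.0708) were past the threshold upwards, LGALS3BP by 0.63 and BATF2, an interferon-induced transcription factor, by 3.07 on the log2 scale (limma adjusted p = 0.00635 and 0.0016). The 6 points fall into the groups compared, and 638 genes had an r above 0.9, so these values are a description only.

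Leukocyte markers were looked at because SP140 and SP110 are abundant in blood cells. Their summed level was 2.09 to 4.05 RPKM in shRNA-NC and 19.6 to 49.4 RPKM in shRNA-UBC9, most of it from CD68, a lysosomal protein that is abundant in macrophages, with a log2 fold change of 3.52 (limma adjusted p = 0.000376). CD68 was highest in shRNA-UBC9 replicate 2. PTPRC, the defining surface protein of leukocytes, did not exceed 0.102 RPKM in any sample. CD3E did not exceed 0.185 RPKM and ITGAM 0.0351 RPKM, with overlap between the groups in both. CD14 did not pass the test (limma adjusted p = 0.25). Of 4 endothelial markers only CDH5 was tested, and it fell from 2.87 ± 0.287 to 0.619 ± 0.39 RPKM (SD, n = 3 each; limma adjusted p = 0.00288).

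The other genes of the pathway were followed by lists. In the SUMO pathway, 2 of 7 tested genes rose and 2 fell, beside 18.8% and 18.0% of all tested genes. Both subunits of the SUMO-activating enzyme fell: SAE1 from 71.4 ± 2.83 to 50.5 ± 5.34 RPKM and UBA2 from 26.9 ± 2.34 to 21.5 ± 1.15 RPKM (SD, n = 3 each; adjusted p = 0.00532 and 0.0278 from limma). SUMO2 rose from 73.0 ± 2.0 to 88.6 ± 1.31 RPKM (adjusted p = 0.019), as did RNF111, a ubiquitin ligase that recognises SUMO chains, with a log2 fold change of 0.28 (adjusted p = 0.0278). RNF4, the ligase that targets SUMO-modified PML for degradation, was at a log2 fold change of -0.03 (adjusted p = 0.765).

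Of 6 tested relatives of the members, 2 rose and 1 fell, beside 18.8% and 18.0% of all tested genes. HIPK3, a sister kinase of HIPK2, rose from 6.84 ± 0.389 to 10.8 ± 2.1 RPKM (SD, n = 3 each; limma adjusted p = 0.00811), and MORC2 had a log2 fold change of 0.27 (adjusted p = 0.0413). USP40 fell by 0.3 on the log2 scale (adjusted p = 0.0273). HIPK1, the other tested kinase of the HIPK2 family, did not pass (log2 fold change -0.12, adjusted p = 0.312).

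Among the 9 genes of H3.3 and its chaperones, all tested, 3 fell and none rose at an adjusted p below 0.05 (limma), beside 18.0% and 18.8% of all tested genes. ASF1B, the histone chaperone of dividing cells, fell from 41.3 ± 3.84 to 21.7 ± 4.93 RPKM and DEK, a chromatin protein and H3.3 chaperone, from 78.0 ± 7.94 to 45.8 ± 2.94 RPKM (SD, n = 3 each; adjusted p = 0.00282 and 0.000917). H3F3A, 1 of the genes for H3.3 itself, fell by 0.32 on the log2 scale (adjusted p = 0.0201), while H3F3B had a log2 fold change of 0.11 (adjusted p = 0.463). HIRA, UBN1, UBN2, CABIN1 and ASF1A, which make up or serve the other route of H3.3 deposition, did not pass the test.

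Among 23 genes of other proteins known from the bodies, 11 fell, 2 rose and 10 did not pass the test, beside 18.0% of all tested genes that fell and 18.8% that rose. The median log2 fold change of the 23 was -0.24. CBX5, the heterochromatin protein HP1 alpha, fell from 17.7 ± 2.25 to 8.58 ± 1.35 RPKM (SD, n = 3 each), or by 1.04 on the log2 scale (limma adjusted p = 0.00104), and was the only down-regulated DEG of the list. The count of such DEGs over all these pathway lists, 1, was 0 without shRNA-NC replicate 2 or without shRNA-UBC9 replicate 2, and 2 without replicate 3 of either group. TDG, a DNA glycosylase and SUMO substrate, fell by 0.84 (adjusted p = 0.00103), SIRT1, a deacetylase, by 0.63 (adjusted p = 0.00473) and EP300, an acetyltransferase, by 0.24 (adjusted p = 0.0418) on the log2 scale. ISG20, an interferon-stimulated exonuclease found in the bodies, rose from 1.02 ± 0.124 to 6.61 ± 2.8 RPKM (SD, n = 3 each), or by 2.51 on the log2 scale (limma adjusted p = 0.000294). RAD50 rose by a log2 fold change of 0.33 (adjusted p = 0.0385), and its partner MRE11 fell by 0.52 (adjusted p = 0.00277).

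**Figure D5:**
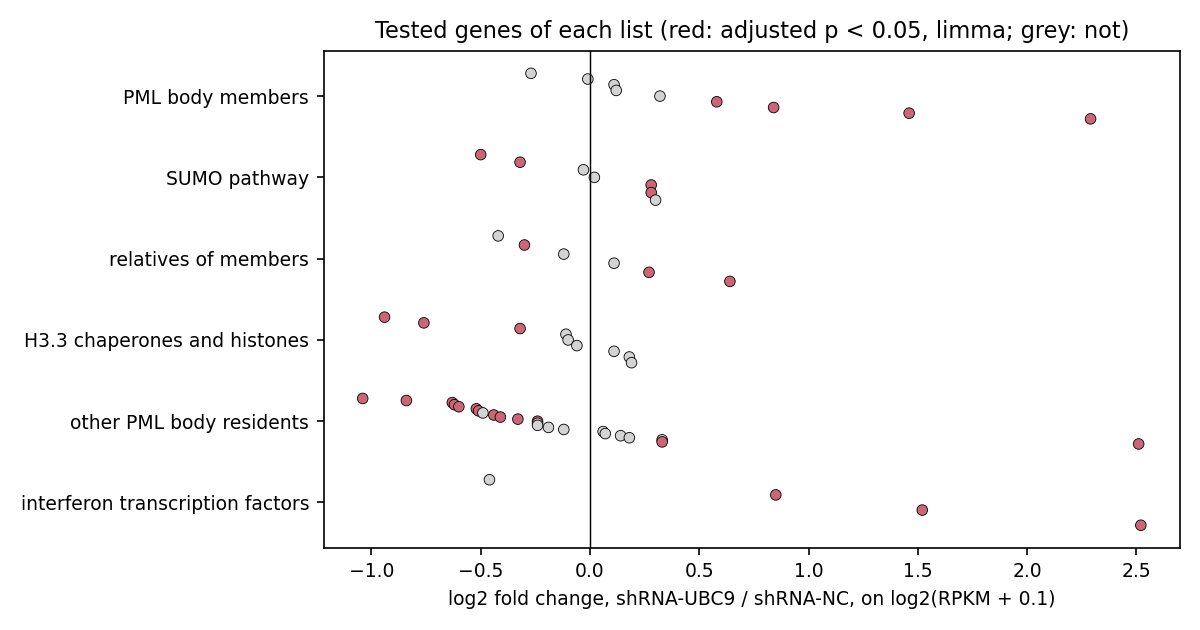
Log2 fold change of every tested gene of 6 lists (points), in red where the adjusted p from limma is below 0.05 and in grey where it is not. Of the 9 PML body members 4 are red and above 0, and of the 23 other residents 11 are red and below 0.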

How the data were processed

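RNA-seq of T24 cells with shRNA-NC or shRNA-UBC9 (3 samples each, grouped by their titles) was analysed. After trimming and mapping to GRCh38 (hg38 per the labels) in the CLC Biomedical Genomics Workbench with default settings, the authors deposited one RPKM table per sample, each of 58174 genes. The annotation release, the strand setting and the handling of reads with several matches are not given in the sources used here.

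RPKM is corrected for gene length and total reads but not for RNA composition, and is not a count, so no count model was used. A gene was tested if 3 or more of the 6 samples reached 0.5 RPKM. On log2(RPKM + 0.1), limma 3.58.1 (R 4.3.3; lmFit, then eBayes with an intensity trend) gave the group differences, and p-values were adjusted over all tested genes. Relative depth was read from the steps of values below 0.1 RPKM. No interval for low values was given because the absolute depth is unknown. No gene had equal values above 0 in any pair of samples. The limma fit was tested on simulated data.

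The members and lists were chosen with earlier results of these data known. Named genes are all members, in each list the genes past the adjusted p, and the 5 genes most like PML. Where over 6 genes of a list passed, the 3 highest and 3 lowest log2 fold changes were taken by sign. The genes named are thus not always those with the largest changes in size. MRE11, CD14, the unpassed genes and the gene neighbours were named outside this rule, after their values were seen. The level of the targeted gene and of some genes of the lists is not reported here. Positions and shared exon bases are from GENCODE 44, start windows from RefSeq. Alternatives were other pseudocounts, filters, scalings, no trend, a replicate block and leaving samples out. Other calculations used Python 3.11.15, numpy 2.4.6, pandas 2.3.3, scipy 1.17.1 and matplotlib 3.10.9.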

Additional observations from a re-analysis of the deposited data

How the results depend on the processing

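PML, SP100 and SP110 kept their direction and an adjusted p below 0.05 (limma) under all 15 alternatives, with log2 fold changes of 0.62 to 1.005, 1.301 to 1.591 and 1.884 to 2.469. SP140L stayed between 0.384 and 0.726 and lost its call in 6: without a filter (0.582, adjusted p = 0.0714), without each shRNA-NC sample, without shRNA-UBC9 replicate 2, and with both samples numbered 2 left out, an alternative chosen after seeing the data (0.388, adjusted p = 0.1). DAXX, HIPK2, MORC3 and USP7 passed under none of the 15 and kept their direction. ATRX, at -0.011, ranged from -0.145 to 0.07 with 1 sample left out and turned to 0.026 without shRNA-NC replicate 2, 0.049 without shRNA-NC replicate 3, 0.042 without shRNA-UBC9 replicate 2, 0.07 without shRNA-UBC9 replicate 3 and 0.079 without both samples numbered 2. The median of the 9 members ranged from 0.182 to 0.429 when 1 sample was left out.

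The count of down-regulated DEGs in the other lists, 1 (CBX5), was 0 with a pseudocount of 1 and with both samples numbered 2 left out, and 0 to 2 with 1 sample left out. Over all genes, 981 DEGs became 552 with a pseudocount of 1 and 552 with an RPKM of at least 1 in every sample. The 4576 genes past the adjusted p alone became 3034 without shRNA-NC replicate 3 and 2532 with both samples numbered 2 left out.

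Same-numbered samples did not move together (correlations of deviations from the group means of -0.367, 0.073 and -0.17). The largest correlation, 0.526, was that of shRNA-NC replicate 1 with shRNA-UBC9 replicate 3, which had the lowest relative depths (1.0 and 0.945). Deviations from a mean cancel out within each small group, so these values cannot show whether the samples were paired. With the number as a replicate block, the same 4 members rose (PML 0.836, SP140L 0.582, adjusted p = 0.0167 and 0.0422), and 3374 genes passed the adjusted p alone. Only shRNA-UBC9 replicate 2 correlated best with its own number. The unknown absolute depth limits SP140 and other genes near 0.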

Other observations

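The genes beside the SP cluster were listed after the values of the SP genes had been seen. Of 9 other protein-coding genes within 500000 bases of the cluster, 6 were tested and 2 of these passed an adjusted p of 0.05 (limma), as did 4576 of all 12428 tested genes. DNER, a ligand-like membrane protein of the Notch pathway, rose from 11.4 to 37.5 RPKM on average, a log2 fold change of 1.7 (adjusted p = 1.88e-05). TRIP12, a ubiquitin ligase, had a log2 fold change of 0.27 (adjusted p = 0.0459). FBXO36 and SLC16A14, which lie between DNER and SP110 and averaged 0.517 to 0.664 RPKM, and CAB39 and ITM2C, on the SP100 side, did not pass, with log2 fold changes of -0.3, 0.1, 0.13 and 0.23.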
